A study of Mus musculus with 6 samples.

Results

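The 10 genes *Cst7*, *Clec7a*, *Lpl*, *Itgax*, *Spp1*, *Axl*, *Csf1*, *Cd9*, *Trem2*, and *Tyrobp*, which are used as markers of disease-associated microglia (DAM), were followed through the myeloid cells of the cerebral vasculature. They were chosen by name, and all 10 were found among the 32287 genes in the count tables. They were read as raw UMIs, that is, as counts of single captured RNA molecules, summed per mouse in 3 classes of myeloid cell. These classes were microglia in which ribosomal protein genes made up at least 3% of the UMIs, microglia under 3%, and perivascular macrophage-like cells. They are called ribosome-rich microglia, ribosome-poor microglia, and perivascular macrophages below.

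The mice were 3 wild type (WT, genotype C57BL/6J) and 3 *TgApp* ArcSwe mice, given in the labels as AppArcSwe and written ArcSwe here. ArcSwe mice carry a human *APP* transgene with the Arctic and Swedish mutations and build up amyloid-β in plaques and in vessel walls. All 6 mice were male, untreated, and 12 months old, and each gave 1 library of single cells from 1 hemisphere of the cerebrum. Vessel fragments were caught with beads against CD31, an endothelial protein, so that the myeloid cells studied were those that came along with vessel fragments.

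Microglia are the resident macrophages of the brain. Near amyloid plaques they are known to lose part of their resting program and to switch on lipid handling, phagocytic, and lysosomal genes, a state named DAM. *Trem2* encodes a surface receptor for lipids and *Tyrobp* the adaptor that carries its signal. Full passage into the DAM state is known to need *Trem2*. The other 8 members are known as genes of the later part of this program and are called late members here, while *Trem2* and *Tyrobp* are treated as the receptor pair.

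The promoters of the members are shown first because the report turns on how far these genes moved together. RefSeq promoters of the GRCm38.p6 build, 250 bases before and 50 bases after the gene start, were found for 8 of the 10 members, which gave 10 promoters, since *Clec7a* and *Spp1* had more than 1 start. None was found for *Lpl* and *Tyrobp*. They were searched on both strands for GGAAGT, a core bound by PU.1 and other ETS factors of myeloid cells. Also searched were TGANTCA, a loose form of the AP-1 motif in which N is any base, and CACGTG, an E-box. None of the 3 motifs overlapped another in these promoters. Printed are the 4 that held a match, 5′ to 3′ on the strand of the gene, with the matched letters in capitals.
Cst7, chr2:150570165-150570464, plus strand: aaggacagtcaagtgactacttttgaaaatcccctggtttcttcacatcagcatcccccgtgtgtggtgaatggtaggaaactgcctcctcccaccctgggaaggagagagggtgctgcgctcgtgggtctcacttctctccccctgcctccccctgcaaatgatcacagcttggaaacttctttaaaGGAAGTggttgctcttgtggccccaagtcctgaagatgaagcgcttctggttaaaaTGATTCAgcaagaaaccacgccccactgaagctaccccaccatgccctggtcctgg
Itgax, chr7:128129300-128129599, plus strand: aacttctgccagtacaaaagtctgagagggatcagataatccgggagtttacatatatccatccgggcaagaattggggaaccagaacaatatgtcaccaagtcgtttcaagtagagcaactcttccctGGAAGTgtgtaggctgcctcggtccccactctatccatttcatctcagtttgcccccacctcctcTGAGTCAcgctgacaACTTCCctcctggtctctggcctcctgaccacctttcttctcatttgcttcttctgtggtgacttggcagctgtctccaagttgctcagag
Spp1, chr5:104434861-104435160, plus strand: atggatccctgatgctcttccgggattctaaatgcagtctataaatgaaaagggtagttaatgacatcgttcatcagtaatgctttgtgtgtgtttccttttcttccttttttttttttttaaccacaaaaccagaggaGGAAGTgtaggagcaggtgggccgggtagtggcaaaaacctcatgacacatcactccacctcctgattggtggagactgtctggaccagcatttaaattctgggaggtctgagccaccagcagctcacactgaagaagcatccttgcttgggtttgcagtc
Trem2, chr17:48346151-48346450, plus strand: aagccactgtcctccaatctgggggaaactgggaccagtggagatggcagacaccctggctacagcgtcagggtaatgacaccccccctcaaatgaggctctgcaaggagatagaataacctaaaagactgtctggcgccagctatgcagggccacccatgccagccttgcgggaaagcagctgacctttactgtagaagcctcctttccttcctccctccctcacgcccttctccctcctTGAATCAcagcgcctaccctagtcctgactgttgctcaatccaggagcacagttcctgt
*Cst7* held GGAAGT from 62 bases before the start and TGATTCA from 6 bases before it. *Itgax* held GGAAGT on either strand and TGAGTCA, *Spp1* held 1 GGAAGT in the promoter printed and no match in its other promoter, and *Trem2* held TGAATCA from 9 bases before the start. Thus 3 of 10 member promoters held GGAAGT, against 23.8% of all 32851 RefSeq mouse promoters of this length. TGANTCA was in 3 of 10, against 7.81% of all promoters. CACGTG was in 0 of 10, against 7.15%. These matches describe the letters in this window only.

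The genes lie on 7 autosomes (GRCm38 coordinates of the GENCODE annotation). *Cst7* is on chromosome 2 at 150570415 to 150578944 and *Trem2* on chromosome 17 at 48346401 to 48354147, both on the plus strand. *Axl* (25757273 to 25788705, minus strand), *Tyrobp* (30413760 to 30417585), and *Itgax* (128129547 to 128150657) share chromosome 7, and *Cd9* (125460266 to 125494791) and *Clec7a* (129461591 to 129472779), both on the minus strand, share chromosome 6. *Clec7a* is annotated as a polymorphic pseudogene there, and its counts come from a sequence that the authors added to the reference. Where in a gene the reads lay cannot be seen in these counts, which sum each gene over its transcripts from its 3′ end.

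After the cell filter, 44112 of 49059 cells remained, and the libraries held 26436229 to 59161203 UMIs. Pairs of libraries shared 4 to 42 cell barcodes, at most 0.55% of the smaller library. Microglia-like clusters held 6548 cells, of which 2620 were ribosome-rich and 3928 ribosome-poor. The 10 microglial markers were all detected in ribosome-rich microglia of every mouse, at a summed 24242 to 30187 CPM, that is, UMIs per 1000000 UMIs. The 3% limit cut through a continuous range, and 16.0% of the microglia had a share between 2.5% and 3.5%. By mouse these were 7.7%, 7.2%, and 15.9% in WT 1, 2, and 3 and 3.3%, 2.3%, and 31.9% in ArcSwe 1, 2, and 3. In ArcSwe 3 a limit of 2% gave 1639 ribosome-rich microglia and a limit of 5% gave 260, against 815 at 3%.

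3 libraries stood apart. ArcSwe 2 gave 13 ribosome-rich microglia, against 719, 551, and 218 in WT 1, 2, and 3, and 304 and 815 in ArcSwe 1 and 3. WT 3 and ArcSwe 3 were shallow, with a median of 1158.5 and 1047 UMIs per ribosome-rich cell, against 6396.5 to 8913 in the other 4 mice. The clusters behind the class also differed. A cluster led by *C1qa*, *C1qb*, and *C1qc* held 94.2% and 97.8% of the ribosome-rich microglia of WT 1 and 2 and 50.7% of those of ArcSwe 1. A cluster led by *Plxdc2* and *Tanc2* held 65.1% of those of WT 3. One led by *C1qa*, *Plxdc2*, and *Dennd4a* held 64.4% of those of ArcSwe 3. The clustering did not use 41 DAM genes, the members among them, so that their levels did not enter the clusters. The 2 microglial classes were divided by ribosomal share. In ribosome-rich microglia of ArcSwe 1 and 3 this share was higher in cells with more late members, as given below. The classes are therefore not independent of the members. The summed level of 12 dissociation and stress genes was 48241 and 49605 CPM in WT 1 and 2, 12427 in WT 3, and 22496 to 38472 in ArcSwe mice, and its part in the results was not tested.

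A further cluster of 604 cells held microglial and endothelial markers side by side and was left out of the classes, a choice made after the data had been seen. *Cldn5* or *Plvap*, endothelial genes, had UMIs in 97.9% to 100% of its ribosome-rich cells. In these *Cst7* was at 0 in the 3 WT mice and at 6.00, 0, and 59.8 CPM in the ArcSwe mice. With this cluster counted as microglia, 1 member instead of 8 passed the test described next, beside 5 of 10911 genes.

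Ribosome-rich microglia answered whether the members differed between ArcSwe and WT. In these cells 8 of the 10 members rose in ArcSwe mice, from a log2 fold change of 0.93 for *Trem2* to 5.99 for *Cst7*. All 5 receptors and adaptors rose, as did *Cd9* and 2 of the 4 secreted proteins, whereas *Lpl* and *Spp1* did not pass the test. The sums of each mouse went into edgeR's quasi-likelihood test, and a gene was called where its p, adjusted by Benjamini-Hochberg over all genes, was under 0.05. Of 9735 genes tested, 362 passed (353 higher and 9 lower in ArcSwe), so that 3.63% of all genes were called higher. The fold changes below are log2 values of ArcSwe against WT with their standard errors, and all adjusted p-values are from edgeR. Levels are CPM over the UMIs summed from the cells of 1 mouse. Because these are sums over a class, a larger number of expressing cells and more RNA per cell cannot be told apart in them.

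*Trem2*, the receptor, had 1952, 1759, and 1730 CPM in WT 1, 2, and 3 and 2999, 3598, and 3075 CPM in ArcSwe 1, 2, and 3. Every ArcSwe mouse lay above every WT mouse. The difference was the smallest among the members that passed (log2 fold change 0.93, SE 0.22, adjusted p = 0.0468), and *Trem2* passed in 1 of the 6 fits that left out 1 mouse.

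*Tyrobp*, its adaptor, had 1770, 1695, and 1745 CPM in WT and 3602, 5594, and 3616 CPM in ArcSwe mice. The WT mice lay close together, and the highest value came from the 13 cells of ArcSwe 2. Its log2 fold change was 1.39 (SE 0.24, adjusted p = 0.0112), and it passed in 4 of the 6 fits with 1 mouse left out.

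*Clec7a* encodes Dectin-1, a receptor for β-glucans that is widely used to stain DAM. It had 14.9, 11.2, and 85.8 CPM in WT and 199, 181, and 236 CPM in ArcSwe mice. WT 3 lay above the other WT mice, but below every ArcSwe mouse. The log2 fold change was 3.21 (SE 0.56, adjusted p = 0.0112), and it passed in 4 of 6 fits with 1 mouse left out.

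*Axl* encodes a receptor tyrosine kinase whose ligand is the *Gas6* protein. It had 3.25, 3.55, and 34.3 CPM in WT and 97.6, 161, and 128 CPM in ArcSwe mice, again with WT 3 above the other WT mice and no overlap. Its log2 fold change was 4.37 (SE 0.58, adjusted p = 0.00241), and it passed in all 6 fits with 1 mouse left out.

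*Itgax* encodes CD11c, an integrin chain. It had 6.50, 6.51, and 25.7 CPM in WT and 38.8, 10.1, and 40.6 CPM in ArcSwe mice. The groups overlapped, since the value of ArcSwe 2 was that of 1 UMI in 13 cells. It was called all the same (log2 fold change 2.27, SE 0.41, adjusted p = 0.0129), and in 3 of 6 fits with 1 mouse left out.

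*Cst7* encodes cystatin F, an inhibitor of lysosomal cysteine proteases. It had 5.34, 7.10, and 36.5 CPM in WT and 573, 343, and 786 CPM in ArcSwe mice. These levels were 23, 24, and 17 UMIs in WT and 1034, 34, and 1355 in ArcSwe mice. No other member showed a larger fold change, with a log2 value of 5.99 (SE 0.59, adjusted p = 0.000664), and it passed in all 6 fits with 1 mouse left out.

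*Lpl* encodes lipoprotein lipase, which frees fatty acids from triglycerides. It had 8.36, 10.4, and 202 CPM in WT and 222, 302, and 299 CPM in ArcSwe mice. The groups did not overlap, but WT 3 came close to ArcSwe 1. The log2 fold change was 2.60 (SE 0.94, adjusted p = 0.187). Without WT 3 it was 4.90 and was called.

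*Csf1* encodes a growth factor that microglia need through its receptor, *Csf1r*. It had 136, 149, and 53.6 CPM in WT and 312, 252, and 439 CPM in ArcSwe mice. Here WT 3 was the lowest of the WT mice. Its log2 fold change was 1.64 (SE 0.36, adjusted p = 0.0316), and it passed in 1 of 6 fits with 1 mouse left out.

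*Spp1* encodes osteopontin, a secreted matrix protein that binds integrins and CD44. It had 0.697, 2.66, and 549 CPM in WT and 47.7, 0, and 274 CPM in ArcSwe mice. The highest level was in WT 3, and the 0 of ArcSwe 2 allows up to 30.2 CPM at the 3 UMIs that a count of 0 can hide. Its log2 fold change was 0.06 (SE 1.55, adjusted p = 0.999). Without WT 3 it was 6.54 and was called, and all 10 members were then called among 1038 called genes of 9988 tested. The direction of *Spp1* was negative without WT 1, WT 2, or ArcSwe 3.

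*Cd9* encodes a tetraspanin, a scaffold protein of the cell surface. It had 1574, 1440, and 1528 CPM in WT and 2895, 3497, and 3307 CPM in ArcSwe mice, with no overlap. Its log2 fold change was 1.20 (SE 0.22, adjusted p = 0.0131), and it passed in 3 of 6 fits with 1 mouse left out.

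**Figure D1:**
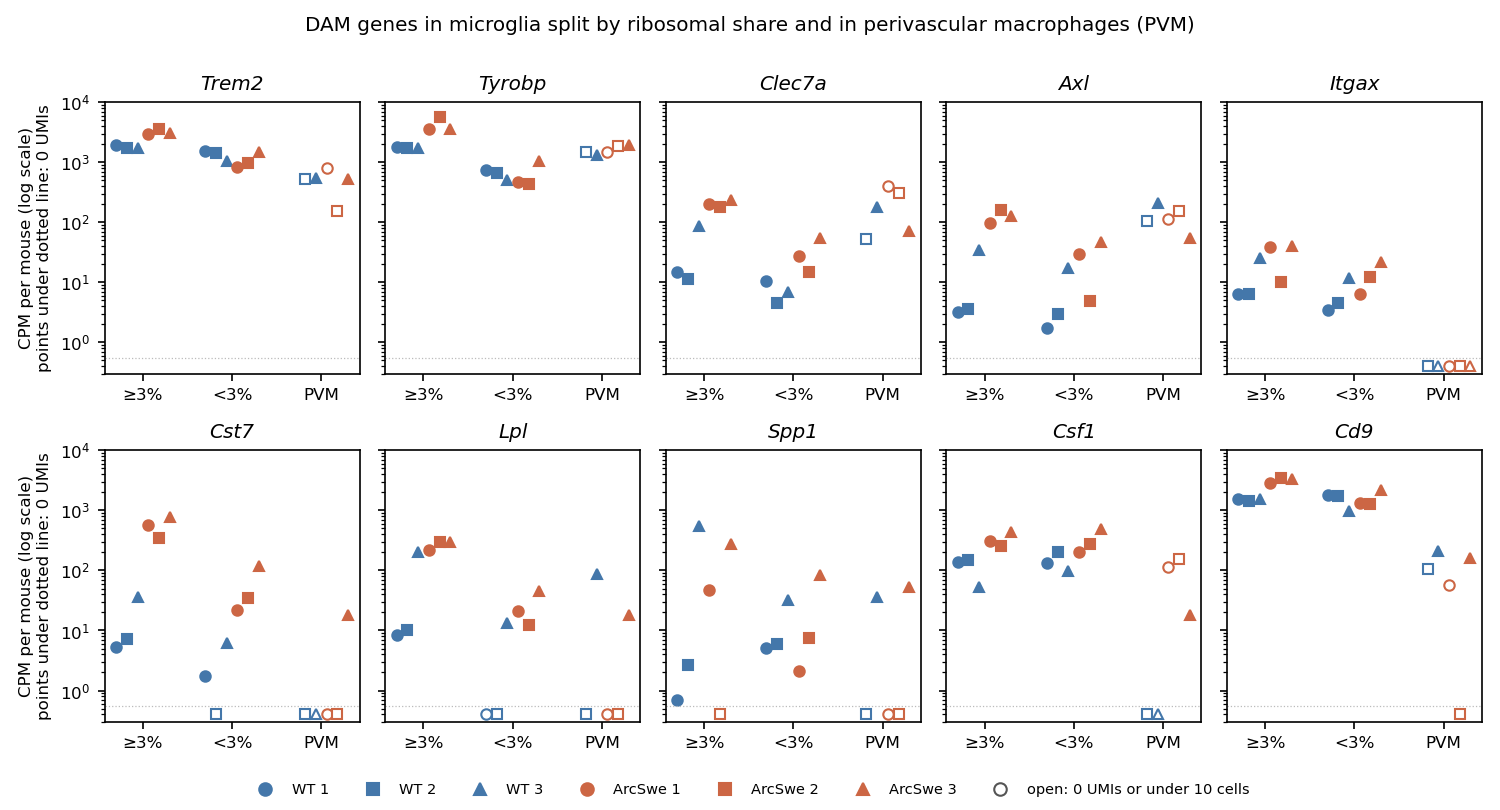
CPM of each member on a log axis in ribosome-rich microglia, ribosome-poor microglia, and perivascular macrophage-like cells, with 1 point per mouse and values of 0 set at the bottom of the axis. In ribosome-rich microglia the ArcSwe points of *Cst7* sit between 343 and 786 CPM, above the WT points at 5.34 to 36.5 CPM, while those of *Spp1* are intermingled with WT.

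Over the 10 members, 8 had every ArcSwe mouse above every WT mouse, against 8.21% of all genes tested, and the exceptions were *Itgax* and *Spp1*. The number of members called depended on single mice. It was 2 without WT 1 and 3 without WT 2, where 88 of 10228 and 122 of 10235 genes were called. It was 3 without ArcSwe 3, where 126 of 10031 genes were called. Without ArcSwe 1 or ArcSwe 2 it was 6, beside 278 of 10177 and 270 of 10141 genes. Without both WT 3 and ArcSwe 2, a fit chosen after the data had been seen, it was 10, beside 1041 of 10501 genes. *Cst7* was called in all 19 alternative fits, with log2 fold changes of 5.37 to 6.85, and *Axl* in 18 of 19. Markers of other cell types differed between these sums too. 8 endothelial markers summed to 104.3 to 463 CPM in WT and 131 to 976 CPM in ArcSwe mice, and 5 erythroid markers to 30.4 to 627 and 40.3 to 1806 CPM. The 10 markers of perivascular macrophages summed to 649 to 764 CPM in WT and 267 to 411 CPM in ArcSwe mice. Without cells that held a UMI of *Cldn5* or *Plvap*, 7 members were called, beside 227 of 8908 genes. The part of the other markers was not tested.

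The size of the changes gave an order that was shared in part by the 3 ArcSwe mice. All mice were of 1 age, so this is an order of size and not of time. Against the WT mean, *Cst7* ranked first in each ArcSwe mouse, at log2 ratios of 5.14, 4.39, and 5.59 in ArcSwe 1, 2, and 3. *Axl* came next in each, at 2.83, 3.56, and 3.23, and *Clec7a* followed in each, at 2.41, 2.28, and 2.66. *Lpl* ranked next in each, at 1.60, 2.04, and 2.03. Behind these the order differed between mice. *Csf1* was at 1.47, 1.16, and 1.96, *Itgax* at 1.59, −0.36, and 1.65, and *Tyrobp*, *Cd9*, and *Trem2* lay between 0.73 and 1.69. This order rests on WT 3, which raised the WT mean 7.85-fold for *Lpl*, 4.03-fold for *Axl*, 2.86-fold for *Clec7a*, 2.62-fold for *Cst7*, 1.99-fold for *Itgax*, and 109.6-fold for *Spp1* over the mean of WT 1 and 2. Against that mean, a base chosen after the data had been seen, *Lpl* lay above *Clec7a* in each ArcSwe mouse, at 4.57, 5.01, and 5.00 against 3.93, 3.797, and 4.18. *Cst7* was then at 6.53, 5.78, and 6.98 and *Axl* at 4.84, 5.57, and 5.24, while *Spp1*, at 4.83 in ArcSwe 1, came first in ArcSwe 3 at 7.35. *Itgax* in ArcSwe 2 turned to 0.63.

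**Figure D2:**
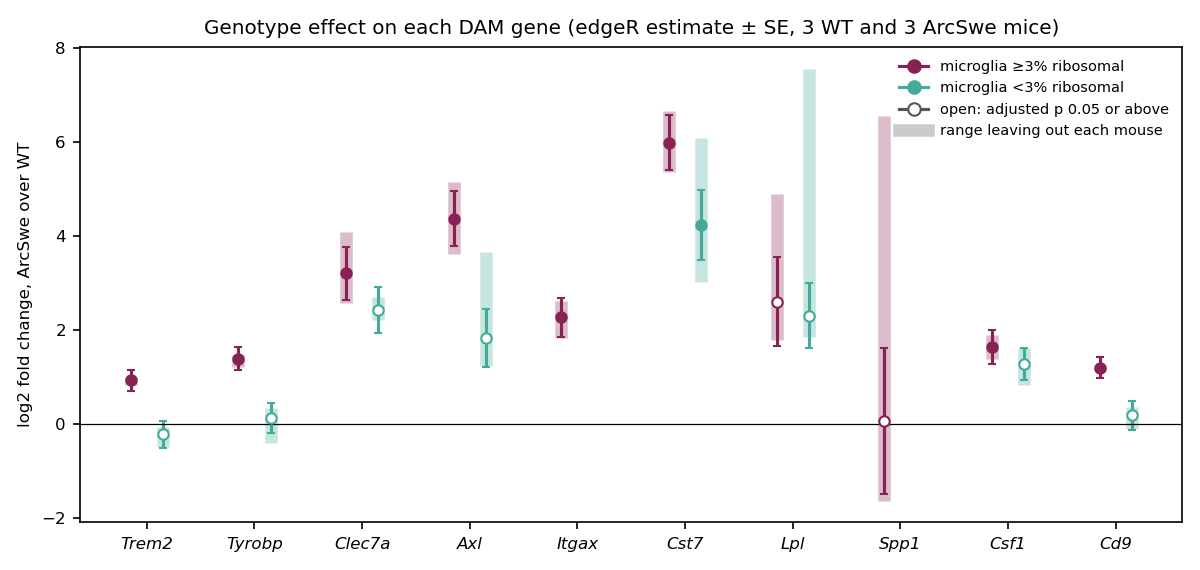
Log2 fold change of ArcSwe against WT for each member in ribosome-rich and ribosome-poor microglia, with standard errors, filled points for an adjusted p under 0.05 in edgeR, and the range over the fits that left out 1 mouse. *Cst7* and *Axl* lie highest in ribosome-rich microglia, at 5.99 and 4.37, and the range of *Spp1* spans 0.

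Ribosome-poor microglia showed fewer differences. The study left out a microglial cluster that was low in ribosomal and high in mitochondrial genes and lacked distinct markers. Ribosome-poor cells had a median of 1855, 1788, and 1201.5 UMIs in WT 1, 2, and 3. In ArcSwe 1, 2, and 3 it was 1244.5, 1934.5, and 1087. The part of cell quality and depth in the smaller number of differences was not tested. Of 7763 genes tested, 11 passed, and 0.129% of all genes were called higher. *Itgax* and *Spp1* were too low to be tested, and of the 8 members tested, 1 was called, *Cst7*. It had 1.72, 0, and 6.27 CPM in WT and 22.0, 34.4, and 120 CPM in ArcSwe mice, in UMIs 10 over the 3 WT mice and 196 over the ArcSwe mice. The groups did not overlap, and the log2 fold change was 4.23 (SE 0.74, adjusted p = 0.0387). It passed in 2 of the 6 fits that left out 1 mouse. Of the 8 members tested, 3 (*Cst7*, *Clec7a*, and *Csf1*) had every ArcSwe mouse above every WT mouse, against 6.27% of all genes tested in this class.

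The other late members did not pass. *Clec7a* had 10.3, 4.46, and 6.97 CPM in WT and 27.2, 14.7, and 55.7 CPM in ArcSwe mice (log2 fold change 2.42, SE 0.49, adjusted p = 0.105). *Lpl* had 0, 0, and 13.2 CPM in WT and 20.9, 12.3, and 45.3 CPM in ArcSwe mice (2.30, SE 0.69, adjusted p = 0.311), and *Csf1* had 133, 202, and 98.2 CPM against 206, 280, and 483 CPM (1.27, SE 0.34, adjusted p = 0.241). *Axl* overlapped between the groups, at 1.72 to 17.4 CPM in WT and 4.91 to 46.8 CPM in ArcSwe mice. *Itgax* lay at 3.44 to 11.8 CPM in WT and 6.27 to 21.5 CPM in ArcSwe mice, and *Spp1* at 5.17 to 32.7 and 2.09 to 84.0 CPM. For each of these 6 genes, ArcSwe 3 was the highest of all mice.

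*Cd9*, *Trem2*, and *Tyrobp* overlapped between the genotypes in ribosome-poor microglia. *Cd9* had 1793, 1709, and 982 CPM in WT and 1344, 1292, and 2209 CPM in ArcSwe mice. *Trem2* had 1562, 1447, and 1031 CPM against 845, 973, and 1465, and *Tyrobp* had 729, 665, and 512 CPM against 473, 442, and 1044. Their log2 fold changes were 0.18, −0.22, and 0.13, with adjusted p-values of 0.825 to 0.921 in edgeR. In each case WT 3 was the lowest WT mouse and ArcSwe 3 the highest ArcSwe mouse.

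The genotype effect was then compared between the 2 microglial classes of the same mice, as an interaction in edgeR with the mouse as a block. Of 9709 genes, 31 passed (0.319%). *Trem2* was the only member among them, with an effect that was 1.17 log2 units larger in ribosome-rich than in ribosome-poor microglia (SE 0.25, adjusted p = 0.0268), and it passed in 3 of the 6 fits that left out 1 mouse. *Tyrobp* differed by 1.33 (SE 0.31, adjusted p = 0.0539) and *Cd9* by 1.00 (SE 0.26, adjusted p = 0.0814) without passing. For *Cst7* the difference was 0.88 (SE 0.83, adjusted p = 0.720), so that a class difference in its response was not shown. With both classes summed, 19 of 10832 genes passed (0.166% of all genes were called higher), and *Cst7* was the only member called (log2 fold change 5.55, SE 0.66, adjusted p = 0.0325).

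The rest of the DAM program was followed with 2 lists, chosen like the members with earlier results of these data known. Of 23 other late DAM genes 21 could be tested in ribosome-rich microglia, and 13 rose and 0 fell. Their median log2 fold change was 1.27, against −0.03 over all genes tested. *Ch25h*, which makes 25-hydroxycholesterol, changed by 4.61 (SE 0.96, adjusted p = 0.0244), *Ank*, a membrane transporter of phosphate compounds, by 2.71 (SE 0.25, adjusted p = 0.000551), and *Lilrb4a*, an inhibitory receptor, by 2.71 (SE 0.59, adjusted p = 0.0310). *Ccl6*, a chemokine, changed by 2.56 (SE 0.34, adjusted p = 0.00241) and *Cd52*, a small surface glycoprotein, by 2.17 (SE 0.33, adjusted p = 0.00455). *Cd83*, a surface protein of activated immune cells, and *Cd63*, a tetraspanin of lysosomes, changed by 1.29 and 1.27. Of 8 genes listed as early DAM genes, 4 rose, with a median over the list of 1.03. *B2m*, the light chain of MHC class I, had a log2 fold change of 1.31 (SE 0.27, adjusted p = 0.0221).

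Few partners of the members passed. Among 20 tested genes of 24 that bind the members or carry their signals, 2 rose and 0 fell, with a median log2 fold change of 0.08. These were *Cd44*, a receptor of osteopontin (2.92, SE 0.34, adjusted p = 0.00136), and *Hcst*, an adaptor related to *Tyrobp* (1.36, SE 0.23, adjusted p = 0.00907). None of the 14 homeostatic microglial genes passed in edgeR, with a median of −0.21 and 9 of 14 below 0, and none of the 12 dissociation and stress genes, with a median of −0.19. In ribosome-poor microglia no gene of these 5 lists passed, and all 14 homeostatic genes had log2 fold changes below 0 (median −0.32).

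How many cells carried the members was read from cells thinned to 1000 UMIs each, since depth differed between mice. This left 711, 551, and 139 ribosome-rich cells in WT 1, 2, and 3 and 301, 13, and 434 in ArcSwe 1, 2, and 3. It removed 79 cells of WT 3 and 381 of ArcSwe 3. *Cst7* was then detected in 0.422%, 0.181%, and 4.32% of the cells in WT and in 22.6%, 7.69%, and 24.9% in ArcSwe mice, against at most 1.17% of endothelial-like cells. The value of ArcSwe 2 was 1 cell of 13. Before thinning the shares were 2.92%, 2.36%, and 3.21% in WT and 39.5%, 23.1%, and 23.4% in ArcSwe mice.

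*Clec7a* was detected in 0.703% to 6.47% of the thinned cells in WT and in 7.69% to 13.4% in ArcSwe mice, *Csf1* in 5.04% to 9.80% and 13.6% to 23.1%, and *Cd9* in 66.9% to 73.8% and 77.7% to 84.6%. In these 3 genes and *Cst7* the groups did not overlap. How many of all genes had shares without overlap was not counted, so this number has no background. Each gave an exact two-sided permutation p of 0.1 (adjusted p = 0.25 over 10 members), the smallest that 3 mice against 3 allow. When cells were thinned to 500 or 2000 UMIs, the groups overlapped for *Cst7* (exact permutation p = 0.4 and 0.2). They did not overlap for *Clec7a*, *Csf1*, and *Cd9* at either depth. In endothelial-like cells, taken as the background, *Clec7a* reached 0.500%. There *Cd9* reached 24.3% and *Csf1* 5.81%. However, over both genotypes endothelial-like cells held more of both genes than B cell-like cells, at 74.5 against 13.1 CPM for *Csf1* and 305 against 141 CPM for *Cd9*. Their endothelial shares therefore cannot be read as background alone.

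*Lpl*, *Itgax*, *Spp1*, and *Axl* were not detected in the 13 cells of ArcSwe 2, which allows shares of up to 24.7% (exact binomial interval, counting error only). In ArcSwe 1 and 3 their shares were 12.0% and 14.7% for *Lpl*, 4.98% and 7.37% for *Axl*, 2.33% and 3.00% for *Itgax*, and 1.99% and 4.84% for *Spp1*. Among WT mice WT 3 was the highest for *Lpl*, *Itgax*, and *Spp1*, at 5.04%, 2.16%, and 3.60%, and held no *Axl* in 139 cells, which allows up to 2.62%. *Trem2* and *Tyrobp* were in most cells of both genotypes, at 69.1% to 79.9% and 67.6% to 78.6% in WT and 69.2% to 79.5% and 73.5% to 100% in ArcSwe mice. In endothelial-like cells *Trem2* reached 8.24% and *Tyrobp* 9.20%, *Lpl* 0.511%, *Spp1* 0.267%, *Axl* 0.151%, and *Itgax* 0.0697%. For *Trem2* and *Tyrobp*, the genotypes differed in the summed level, as given above, and overlapped in the share of cells.

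**Figure D3:**
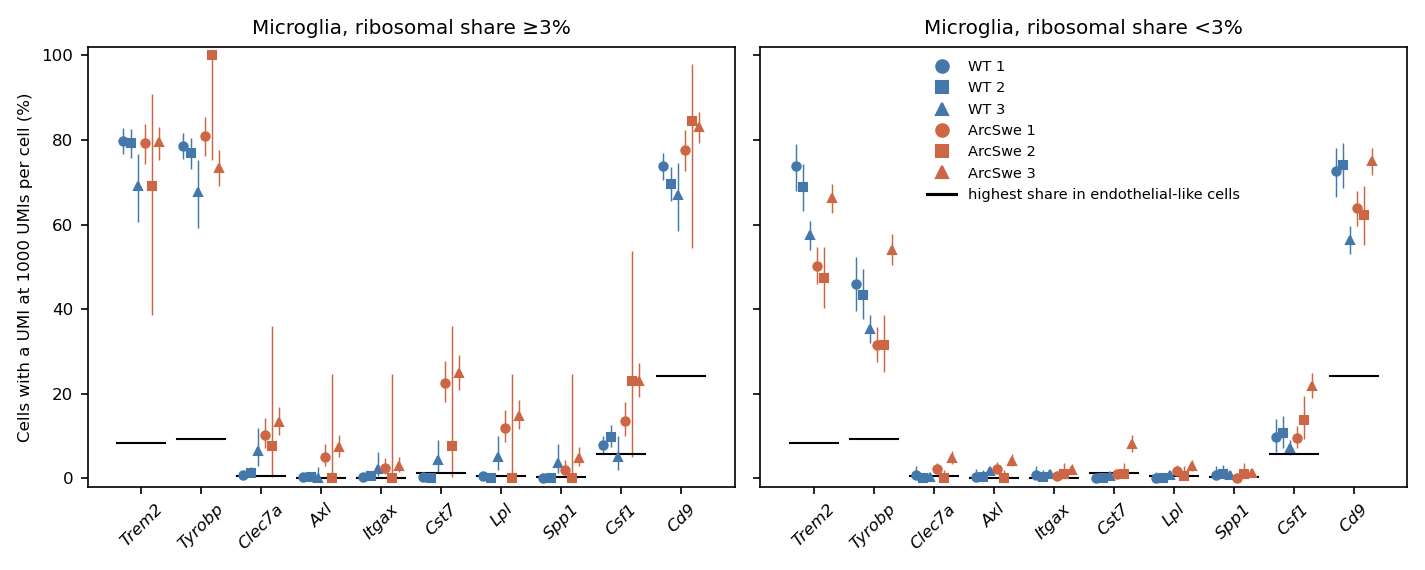
Share of ribosome-rich microglia with at least 1 UMI of each member after thinning every cell to 1000 UMIs, with 1 point per mouse and exact binomial intervals that cover counting error only. The ArcSwe points of *Cst7* lie at 7.69% to 24.9% and the WT points at 0.181% to 4.32%, and the intervals of ArcSwe 2, from 13 cells, are the widest.

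Co-detection was counted over the 8 late members. At least 2 were found in 39.2%, 23.1%, and 49.8% of the thinned ribosome-rich cells of ArcSwe 1, 2, and 3, that is, in 118, 3, and 216 cells. In WT 1, 2, and 3 they were found in 7.59%, 9.62%, and 12.2%, or 54, 53, and 17 cells. The means were 37.3% ± 13.4 (SD, n = 3) and 9.81% ± 2.32 (n = 3), with a difference of 27.5 percentage points and no overlap (exact permutation p = 0.1, the smallest possible). Because *Cd9* was in most cells, the count was repeated over the other 7, a choice made after the data had been seen. It then gave 18.9%, 15.4%, and 23.5% in ArcSwe and 0.563%, 0.544%, and 5.76% in WT mice (exact permutation p = 0.1). Endothelial-like cells held at least 2 of the 8 in 0.502% to 2.40% of cells and at least 2 of the 7 in 0% to 0.139%. At least 3 of the 8 were found in 18.7% ± 3.5 of the cells in ArcSwe and 2.05% ± 2.59 in WT mice (SD, n = 3 each, exact permutation p = 0.1). At least 4 were found in 4.43% and 1.49%, where the groups overlapped (exact permutation p = 0.4).

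Pairs of late members were found in the same cells more often than the product of their shares gave. Of pairs whose product came to at least 1 cell, the ratio of observed to product was above 1 in 16 of 19 in ArcSwe 1 (median 1.26, range 0.647 to 2.43) and in 24 of 26 in ArcSwe 3 (median 1.32, range 0.814 to 3.23). *Cst7* and *Clec7a* were together in 17 cells of ArcSwe 1 and 32 of ArcSwe 3, where the products came to 7.0 and 14.4 cells. Of the *Clec7a* cells, 54.8% and 55.2% also held *Cst7*. *Lpl* and *Axl* were together in 2 and 4 cells, where the products came to 1.79 and 4.72. The pairs share genes and cells, so the ratios are given as a description.

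The share of each late member was then read against the number of late members per cell in ArcSwe 1 and 3. The counts themselves enter this grouping, so these shares too are a description. Among cells with 1 late member that member was *Cd9* in 91.5% and 88.8% of cells. *Cst7* was in 36.5% and 27.7% of the cells with 2 late members, in 72.5% and 60.7% of those with 3, and in 93.3% and 91.7% of those with 4 or more. *Csf1* was in 23.8% and 39.5%, then 37.5% and 41.0%, then 53.3% and 58.3%. *Lpl* was in 20.6% and 16.8%, then 35% and 31.1%, then 46.7% and 66.7%. *Clec7a* was in 7.94% and 9.24% of the cells with 2, 37.5% and 32.8% of those with 3, and 73.3% and 69.4% of those with 4 or more. At 4 or more, *Axl* was in 3 of 15 cells and 22.2% of cells and *Itgax* in 3 of 15 cells and 16.7%, while *Spp1* reached 6.67% in ArcSwe 1 and 36.1% in ArcSwe 3. The last group rested on 15 and 36 cells.

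*Trem2* and *Tyrobp* did not enter that grouping, and both were higher in the cells with more late members, given here as UMIs per 1000 UMIs and without a test. From 0 to 4 or more late members *Tyrobp* went from 1.28 to 5.60 in ArcSwe 1 and from 1.00 to 5.06 in ArcSwe 3. *Trem2* went from 1.21 to 3.27 in ArcSwe 1, with 4.53 at 3 late members, and from 1.52 to 4.11 in ArcSwe 3. *Apoe*, an apolipoprotein, went from 1.42 to 16.5 and from 5.17 to 19.4, and *Ctsd*, a lysosomal protease, from 4.23 to 12.3 and from 4.27 to 11.6. Homeostatic genes went the other way. *P2ry12*, a purine receptor, went from 1.38 to 0.533 and from 0.875 to 0.472, and *Tmem119* from 1.02 to 0.0667 and from 0.521 to 0.250. The ribosomal share of the same cells went from 5.72% to 13.4% and from 4.30% to 12.2%. Its part in these trends was not tested.

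**Figure D4:**
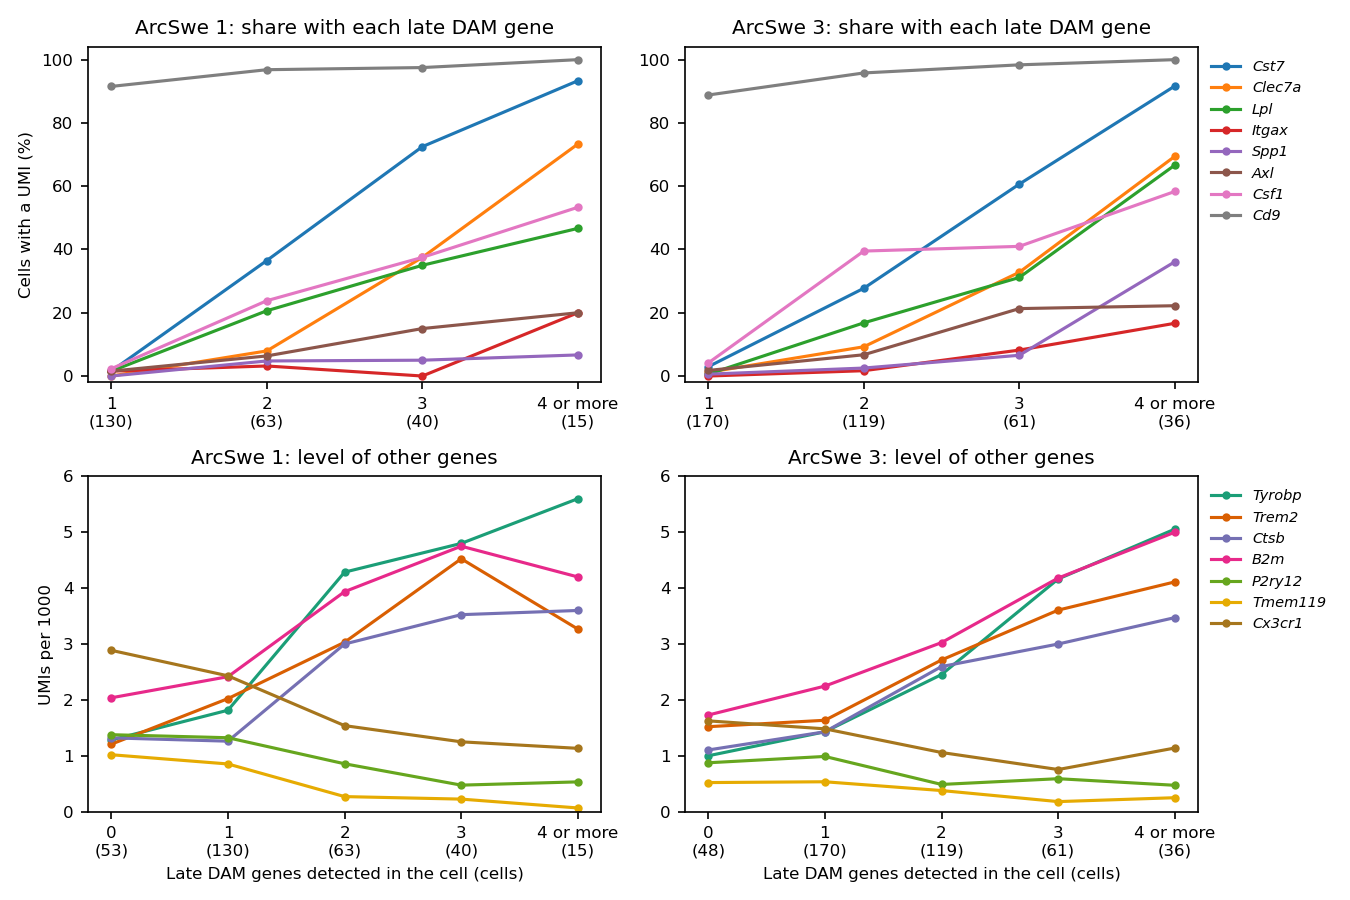
Ribosome-rich microglia of ArcSwe 1 and ArcSwe 3, thinned to 1000 UMIs and grouped by the number of late members detected per cell, with the share of cells holding each late member (top) and UMIs per 1000 of genes outside the grouping (bottom). *Cst7* reaches 93.3% and 91.7% of the cells with 4 or more late members, where *Tmem119* is at 0.0667 and 0.250 UMIs per 1000.

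The members were gathered in 2 clusters that had been built without them. In the cluster led by *Ccl4* and *Ccl3* (518 cells, of which 128, 6, and 354 came from ArcSwe 1, 2, and 3), *Cst7* had a UMI in 62.7% of cells, *Clec7a* in 55.2%, *Csf1* in 56.9%, *Lpl* in 50.8%, *Axl* in 45.4%, *Itgax* in 19.9%, and *Spp1* in 17.6%. In a cluster of 44 cells with a median ribosomal share of 28.1%, *Cst7* was in 70.5%, *Clec7a* in 59.1%, and *Lpl* in 52.3%, but *Csf1* in 2.27%. In the 3 other microglial clusters *Cst7* was in 0.594% to 2.91% of cells and *Clec7a* in 0.743% to 3.24%. *Cd9* was in at least 63.4% and *Trem2* in at least 64.9% of the cells of each cluster. These shares are not thinned, and the clusters had median depths of 1166 to 6426 UMIs.

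The *Spp1* and *Lpl* UMIs of WT 3 lay in 11 cells each. In ribosome-rich microglia of WT 3, there were 256 *Spp1* UMIs, and the 6 highest cells held 251 of them, 101 in 1 cell. In ArcSwe 3 the 472 UMIs came from 48 cells, with 80.5% in the 6 highest and 208 in 1 cell. In ArcSwe 1 the 86 UMIs were spread over 34 cells, with 47.7% in the 6 highest. For *Lpl* 94.7% of 94 UMIs came from 6 cells in WT 3, against 26.4% of 401 in ArcSwe 1 and 103 of 516 UMIs in ArcSwe 3. *Cst7* was spread over 120 cells in ArcSwe 1 and 191 in ArcSwe 3, with 19.9% and 19.0% in the 6 highest cells, and its 17 UMIs in WT 3 lay in 7 cells.

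Perivascular macrophages lie between the vessel wall and the brain tissue and do not arise from microglia. Here they were few, with 70 cells over 6 mice, and only WT 3 (28 cells) and ArcSwe 3 (27 cells) held at least 10. Of these, 40 cells (20 in WT 3 and 16 in ArcSwe 3) formed a weakly marked cluster with a median of 1130.5 UMIs. Its macrophage markers exceeded their share over all cells by a mean of 22.8 percentage points, and its microglial markers by 17.9. In the cluster of the other 30 cells these values were 63.9 and 32.9. The sums below pool both clusters, and the part of the weakly marked cells was not tested. All 10 of their markers, such as *Mrc1* and *Cd163*, were detected in both, at a summed 8552 and 9245 CPM. The 10 microglial markers, of which *Csf1r*, *C1qa*, and *C1qb* are also known in macrophages, summed to 12598 and 11503 CPM. With 1 mouse per genotype there was no test, and the intervals below are 95% Poisson intervals that cover counting error only.

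*Tyrobp* had 1331 CPM in WT 3 (75 UMIs, 1047 to 1668) and 1971 CPM in ArcSwe 3 (110 UMIs, 1620 to 2375). *Trem2* was at nearly the same level in both, at 550 CPM (31 UMIs, 374 to 781) and 520 CPM (29 UMIs, 348 to 746). *Axl* had 213 CPM (12 UMIs, 110 to 372) in WT 3 and 53.8 CPM (3 UMIs, 11.1 to 157) in ArcSwe 3. *Clec7a* had 177 CPM (10 UMIs, 85.1 to 326) and 71.7 CPM (4 UMIs, 19.5 to 184), and *Cd9* had 213 CPM (12 UMIs) and 161 CPM (9 UMIs). The intervals of each of these 5 members overlapped between the mice. *Cst7* was at 0 and 1 UMIs, *Csf1* at 0 and 1, *Itgax* at 0 in both, *Spp1* at 2 and 3, and *Lpl* at 5 and 1. The 0 UMIs of *Cst7* in WT 3 allow up to 53.2 CPM. In ArcSwe 3 *Cst7* was at 17.9 CPM (0.454 to 99.8) in perivascular macrophages and at 786 CPM (745 to 829) in ribosome-rich microglia of the same library, and these intervals did not overlap.

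Levels of each member were then set side by side over the cell classes, as means over the mice with at least 10 cells. Over both genotypes the highest mean was in ribosome-rich microglia for 6 members (*Cst7*, *Lpl*, *Spp1*, *Cd9*, *Trem2*, and *Tyrobp*). It was there for 3 members in WT mice alone (*Spp1*, *Cd9*, and *Trem2*) and for 8 in ArcSwe mice alone, all but *Itgax* and *Axl*. In WT mice *Cst7* was higher in T or NK cell-like cells (63.9 against 16.3 CPM), *Lpl* in mural-like cells (100.3 against 73.5 CPM), and *Tyrobp* in monocyte-like cells (1797 against 1737 CPM). Of the 6 members, only for *Trem2* (2519 ± 803 CPM, SD, n = 6) did the mean exceed that of the next class, ribosome-poor microglia (1221 ± 305), by more than its SD. The SDs over 6 mice span both genotypes and so include the difference between them. In ArcSwe mice alone *Cst7* (568 ± 222 against 74.4 CPM) and *Lpl* (275 ± 45.4 against 85.1) also exceeded the next class by more than their SD. So did *Cd9* (3233 ± 308 against 1615 CPM) and *Tyrobp* (4271 ± 1146 against 2077), but not *Spp1*. *Axl* had 133 CPM in perivascular macrophages (2 mice), 131 ± 11.4 (SD, n = 6) in mural-like cells, and 71.4 ± 67.3 (n = 6) in ribosome-rich microglia. In WT mice alone it had 132 ± 17.5 CPM in mural-like cells and 13.7 ± 17.9 in ribosome-rich microglia, and these did not overlap. In ArcSwe mice alone the 2 classes lay close together, at 130 ± 4.22 and 129 ± 31.8 CPM (SD, n = 3 each). *Clec7a*, *Csf1*, and *Itgax* were highest in monocyte-like cells over both genotypes, at 212 ± 137, 381 ± 321, and 107 ± 38.9 CPM (n = 5). In ArcSwe mice alone ribosome-rich microglia had more *Clec7a* (205 against 190 CPM) and *Csf1* (335 against 298 CPM) than monocyte-like cells. Over both genotypes the monocyte-like means of *Clec7a* and *Csf1* did not exceed those of ribosome-rich microglia (121 ± 97.5 and 224 ± 140, n = 6) beyond the spread. Monocyte-like cells held *Tyrobp* at 1909 ± 246 CPM, against 3004 ± 1566 in ribosome-rich microglia, and *Trem2* at 34.2 ± 26.4 CPM. *Cst7* was at 69.1 ± 23.3 CPM in T or NK cell-like cells and *Lpl* at 92.7 ± 19.2 in mural-like cells, with 0.0826 and 4.09 CPM of *Cst7* in endothelial-like cells of WT and ArcSwe mice. In mural-like, T or NK cell-like, and monocyte-like cells no late member had the pattern seen in microglia, in which every ArcSwe mouse lay above every WT mouse. *Tyrobp* had this pattern in monocyte-like cells, at 1491 to 1991 CPM in 3 WT and 2037 to 2117 CPM in 2 ArcSwe mice. In astrocyte-like cells *Lpl* (0 UMIs in WT and 3 in ArcSwe mice) and *Tyrobp* (4 and 17 UMIs) had it too. How many of all genes had it in these classes was not counted.

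By a fixed measure, the 5 genes most like the late members were *Lilrb4a*, *Etl4*, *Bcl2a1d*, *Atxn10*, and *Bag1*. The measure was the ratio of the share of cells with a UMI among ribosome-rich microglia with at least 2 late members to that among those with none, as the mean of ArcSwe 1 and 3. *Lilrb4a* was in 17.6% against 1.04% of cells, *Etl4* in 14.5% against 0.943%, *Bcl2a1d*, a survival factor of the BCL2 family, in 14.1% against 0.943%, *Atxn10* in 10.7% against 1.04%, and *Bag1*, a chaperone partner, in 14.5% against 1.99%. The cells with none numbered 53 and 48, so that the lower shares rest on 0 or 1 cell in each mouse.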

How the data were processed

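The authors ran Cell Ranger 7.0.0 against mm10, to which they had added *Clec7a* and the human *NOTCH3* gene. Deposited were raw counts of UMIs for each cell, used here without the normalization of the study. Each table belongs to 1 of 6 mice, and 0 columns of other samples were present. Cells with 500 to 4500 genes and under 10% mitochondrial UMIs were kept, as in the methods of the study.

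Counts scaled to 10000 per cell, 2000 variable genes without 41 DAM genes, 30 principal components, and 20 neighbours (Python 3.11.15, numpy 2.4.6, scipy 1.17.1, pandas 2.3.3, scikit-learn 1.9.0) entered Leiden clustering (leidenalg 0.10.2, igraph 0.11.9, resolution 1). Clusters were named from at least 3 markers found in at least 10% of cells. A cluster was left unnamed where markers of a second type exceeded their share over all cells by a mean of over 10 percentage points. Pairs among microglia, macrophages, and monocytes were exempt from this. The cluster of macrophages and monocytes was also split again. Both steps were chosen after the data had been seen. Scrublet marked 0.233% of cells as doublets and was treated as not having worked, so no doublets were removed.

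The tested counts held 29444 of 32287 genes, without those of ribosomal proteins, mitochondria, pseudogenes, and Rik entries. Counts were summed per mouse and class where it held at least 10 cells, filtered with filterByExpr, and scaled by TMM factors. The quasi-likelihood functions glmQLFit and glmQLFTest (edgeR 4.0.16, R 4.3.3, limma 3.58.1) then compared the genotypes with no other term. The sums held 99216 to 4306589 UMIs in ribosome-rich and 406976 to 1436205 in ribosome-poor microglia. No test was made in perivascular macrophages. The fits were checked on simulated data. Alternatives included DESeq2 1.42.0. Exact permutation tests over mice, two-sided, were used for shares of cells, where 3 against 3 can give no p below 0.1. Figures were drawn with matplotlib 3.10.9.

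The members and the gene lists were chosen with earlier results of these data known. Of the lists, the 10 called genes with the largest absolute log2 fold change per class were named.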

Additional observations from a re-analysis of the deposited data

Results flagged for a closer look

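7 of the 85 genes of the member and DAM related lists that could be tested had a genotype effect that differed between ribosome-rich and ribosome-poor microglia, by the interaction test of edgeR at an adjusted p under 0.05. Over all 9709 genes 31 passed (0.319%), and with 1 mouse left out 4 to 663 did. In each the effect of ArcSwe against WT was larger in ribosome-rich microglia. The difference was 1.79 on the log2 scale for *Ank* (SE 0.30, adjusted p = 0.00431), with effects of 2.71 and 0.93 in the 2 classes. It was 1.20 for *Ctsd* (SE 0.24, adjusted p = 0.0221), where the effects were 0.98 and −0.19, and 1.117 for *Cd68* (SE 0.23, adjusted p = 0.0237), where they were 1.11 and −0.01. *Serpine2*, a protease inhibitor, gave 1.13 (SE 0.23, adjusted p = 0.0237), with 1.26 and 0.11. *Trem2*, the only member, gave 1.17 (SE 0.25, adjusted p = 0.0268), with 0.93 and −0.22. The lysosomal proteases *Ctsb* and *Ctsz* gave 1.04 (SE 0.22, adjusted p = 0.0268) and 1.18 (SE 0.25, adjusted p = 0.0287), with effects of 1.23 and 0.21 for *Ctsb* and of 0.94 and −0.25 for *Ctsz*. In ribosome-poor microglia none of the 7 was called (edgeR adjusted p-values from 0.328 to 0.993). The classes differ in depth and in the clusters that fill them. The ribosomal share that divides them was also higher in cells with more late members in ArcSwe 1 and 3. The part of any of these in the class differences was not tested.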

How the results depend on the processing

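In ribosome-rich microglia 362 genes and 8 members were called. The counts of genes were 939 with no filter on low counts, 175 at a ribosomal cut of 2%, 227 without cells with *Cldn5* or *Plvap*, 5 with the cluster that holds endothelial markers, 1041 without both WT 3 and ArcSwe 2, and 88 to 1038 with 1 mouse left out. The members called were 5 at the cut of 2%, 1 with that cluster, and 2 to 10 with 1 mouse left out. In ribosome-poor microglia (11 genes, 1 member) they were 21 genes with DESeq2, 135 genes and 5 members with no filter, 7 and 0 at a cut of 2%, 2 and 0 at 5%, 3 and 0 with the cut made by cluster, 6 and 0 with the strict cell filter of 1000 genes and 5% mitochondrial UMIs, 0 members with the added cluster, 44 and 2 without both mice, and 5 to 92 genes and 0 to 2 members with 1 mouse left out. With both classes summed (19 genes, 1 member) they were 180 and 5 with DESeq2, 259 and 6 with no filter, 37 and 2 with RLE, 29 genes with the strict filter, 3 genes with the added cluster, 2 members without *Cldn5* or *Plvap* cells, 1845 and 9 without both mice, and 2 to 1044 genes and 0 to 7 members with 1 mouse left out. For the difference between classes (31 genes, 1 member) they were 106 and 3 with no filter, 2 members with RLE, and 4 to 663 genes and 0 to 4 members with 1 mouse left out. Of the members 6 had their highest mean level in ribosome-rich microglia, and 3 in WT mice alone. Of the members' shares 4 had no overlap, 2 with no ribosomal cut and 4 to 7 with 1 mouse left out, with no count over all genes beside them. The alternatives with fewer mice, fewer cells, or more genes tested differ by construction in these, and other causes were not tested.

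With the replicate number as a block, 381 genes and 9 members were called in ribosome-rich, 13 and 1 in ribosome-poor, and 51 and 4 in summed microglia. Deviations of same-numbered mice correlated at 0.040, 0.092, and 0.244 in ribosome-rich microglia. They correlated at 0.031, −0.040, and 0.023 in ribosome-poor and at 0.335, −0.103, and 0.155 in summed microglia. With 3 values per class, these cannot decide whether the numbers pair the mice.

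Directions turned for single members. *Spp1* in ribosome-rich microglia was at −0.56 with DESeq2, −0.14 with the strict filter, −0.047 with the cut by cluster, −1.64 without ArcSwe 3, −0.72 without WT 1, −0.71 without WT 2, and up to 6.54 without WT 3. With both classes summed and 1 mouse left out it ran from −1.0 to 5.37, and its class difference from −1.92 to 3.71. In ribosome-poor microglia *Cd9* was at −0.086 and −0.12 without WT 3 and ArcSwe 3 (up to 0.37 without another mouse) and at −0.090 with the cut by cluster, and *Tyrobp* at −0.044 and −0.40 without these mice (up to 0.34), −0.020 with the strict filter, and −0.45 at a cut of 5%. With 1 mouse left out the class difference of *Clec7a* ran from −0.49 to 1.72 (−0.18 without ArcSwe 1) and that of *Itgax* from −0.11 to 1.19. The share of *Trem2* cells differed by −0.0455 percentage points in the main comparison and by 1.39 and 2.70 at 500 and 2000 UMIs, 0.605 without *Cldn5* or *Plvap* cells, and −3.56 to 3.36 with 1 mouse left out (1.85 and 1.57 without WT 1 and WT 2). That of *Tyrobp* was −0.636 without thinning and −9.60 with no cut, and that of *Spp1* ran from −0.202 to 2.28 with 1 mouse left out. Of the other values of single genes, 820 kept their sign and their side of the threshold, 145 lost a call, and 51 gained one. Fits without Scrublet doublets and all fits of perivascular macrophages were not run.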
